A study of Mus musculus with 11 samples.

Results

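Langerhans cells and conventional dendritic cells of inflamed back skin were followed here through 9 genes: Cd207, Ly75, Clec9a, Cd209a, Mgl2, Itgax, Flt3, Zbtb46 and Cd86. They were taken by symbol from the 24411 genes of the deposited gene tables, as a list of marker genes whose rule used no measured value, though earlier results of these data were known when it was drawn up, and all 9 passed the filter on low counts that left 14588 genes for testing. Total RNA from back skin of 11 mouse samples was sequenced. Every host was of the strain Tg(act-EGFP)Y01Osb, was irradiated with 10 Gy, and received sorted femoral bone marrow cells of Pdgfra-Cre;tdTomato mice through the tail vein. The tdTomato-negative group (n = 7) received cells without the red reporter and the tdTomato-positive group (n = 4) received cells with it, so the comparison asks how skin differs with the Pdgfra-Cre history of the transplanted marrow. After 6 weeks, all hosts were given MC903 (calcipotriol), a vitamin D analog that brings on a dermatitis resembling atopic dermatitis, 6 times on the back, and skin was taken on day 14. Age is labelled 16-18 with no unit. No group without MC903, irradiation or transplant was analysed here, the Cre marks every cell whose ancestors expressed it, and these RNA counts do not separate host cells from donor cells. Whether each sample came from its own animal is not labelled, and the spread that p-values are set against may be technical.

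Langerhans cells are the antigen-presenting cells of the epidermis. They extend processes between keratinocytes, depend on interleukin 34 and TGF-beta, renew themselves in place and largely survive irradiation of the host. Conventional dendritic cells of the dermis arise from bone marrow precursors under the growth factor FLT3 ligand and fall into type 1 cells, which cross-present antigen to CD8 T cells, and type 2 cells, which are tied to T helper responses in allergic skin. On activation both kinds carry antigen to lymph nodes and raise co-stimulatory molecules such as CD86.

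The genes lie on 7 chromosomes of GRCm38.p6, in RefSeq's annotation. Cd207 spans chr6:83671207-83677857 and Clec9a chr6:129408862-129424764, Zbtb46 spans chr2:181371009-181493262 and Ly75 chr2:60292103-60383273. Itgax spans chr7:128129526-128150657, Flt3 chr5:147330741-147400489, Cd209a chr8:3743395-3748984, Mgl2 chr11:70130125-70137542 and Cd86 chr16:36568956-36666158. Promoter sequence from RefSeq was matched for 8 of the 9. Cd207 is the gene that defines Langerhans cells, and Itgax with Clec9a and with Flt3 had the highest correlations among pairs of members across samples. For these genes, the 250 bases before the transcript start used in RefSeq's promoter table are shown. All are 5′ to 3′ on the gene's own strand, with capitals marking the motif matches named after them.
Cd207: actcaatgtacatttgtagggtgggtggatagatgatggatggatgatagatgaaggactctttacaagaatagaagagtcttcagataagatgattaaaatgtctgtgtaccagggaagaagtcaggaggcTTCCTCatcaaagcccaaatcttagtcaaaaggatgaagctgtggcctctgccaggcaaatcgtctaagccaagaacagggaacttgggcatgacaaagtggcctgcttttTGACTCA
Itgax: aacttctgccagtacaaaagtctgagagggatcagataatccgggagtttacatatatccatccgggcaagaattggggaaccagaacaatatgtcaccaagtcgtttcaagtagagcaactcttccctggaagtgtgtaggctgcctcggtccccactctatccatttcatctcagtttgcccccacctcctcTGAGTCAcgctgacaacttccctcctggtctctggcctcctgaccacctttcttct
Flt3: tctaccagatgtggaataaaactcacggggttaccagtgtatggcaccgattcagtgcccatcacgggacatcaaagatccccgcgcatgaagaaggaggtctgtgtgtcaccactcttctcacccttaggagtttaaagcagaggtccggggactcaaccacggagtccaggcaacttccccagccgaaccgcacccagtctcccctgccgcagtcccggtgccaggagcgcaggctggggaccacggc
Clec9a: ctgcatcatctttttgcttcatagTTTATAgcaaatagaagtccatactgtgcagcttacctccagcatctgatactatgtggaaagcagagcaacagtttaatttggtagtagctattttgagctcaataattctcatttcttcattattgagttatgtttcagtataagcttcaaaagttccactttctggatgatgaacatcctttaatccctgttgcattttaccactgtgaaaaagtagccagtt

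The windows lie at chr6:83677858-83678107 on the minus strand, chr7:128129300-128129549 on the plus strand, chr5:147400490-147400739 on the minus strand and chr6:129408612-129408861 on the plus strand. Each was searched on both strands for the core letters of PU.1 sites (GAGGAA), AP-1 sites (TGANTCA), RUNX sites (TGTGGT) and the TATA box (TATAAA), motifs chosen after the sequences had been read and none of which overlaps another in these windows. The AP-1 letters occurred in 3 of the 8 members' windows, beginning 7 bases before the start of Cd207, 56 before that of Itgax and 61 before that of Zbtb46. Among 32851 promoters of the same length, 6.75% held them. PU.1 core letters were found 118 bases before the start of Cd207, on the opposite strand, and 225 before that of Mgl2, and 23.3% of all promoters held them. TATA box letters stood on the opposite strand of Clec9a, 226 bases before its start, and of Cd209a, 184 before its start, against 12.4% of all promoters. RUNX letters stood 200 bases before the start of Ly75, against 14.0%. The Flt3 window held none of the 4 motifs. These distances count from the start used in the promoter table, which for 3 members is not the edge of the gene span given above. The Zbtb46 window lies wholly inside the gene's span, the Mgl2 window nearly wholly, and the Itgax window ends a little inside it. A match describes the letters and is not a measured binding site.

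In the comparison of the groups, no member passed an adjusted p of 0.05 in edgeR's quasi-likelihood test with Benjamini-Hochberg adjustment over all tested genes. The background was 0% of 14588 genes. Cd86 was the 1 member with an unadjusted p under 0.05, against 16.8% of all tested genes. It was higher in the tdTomato-positive group, and 7.05% of tested genes had such a p in that direction and 9.73% in the other. The fitted log2 fold change, tdTomato-positive against tdTomato-negative, was above 0 for 6 of the 9, against 48.6% of all tested genes. The members' median was 0.28 and that of all tested genes -0.01. For none of the 9 were the groups free of overlap in CPM, against 1.67% of all tested genes. CPM is the count scaled to the sample's total, adjusted by edgeR's TMM factor. In bulk skin, fewer cells of a type and less RNA per cell cannot be told apart.

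**Figure D1:**
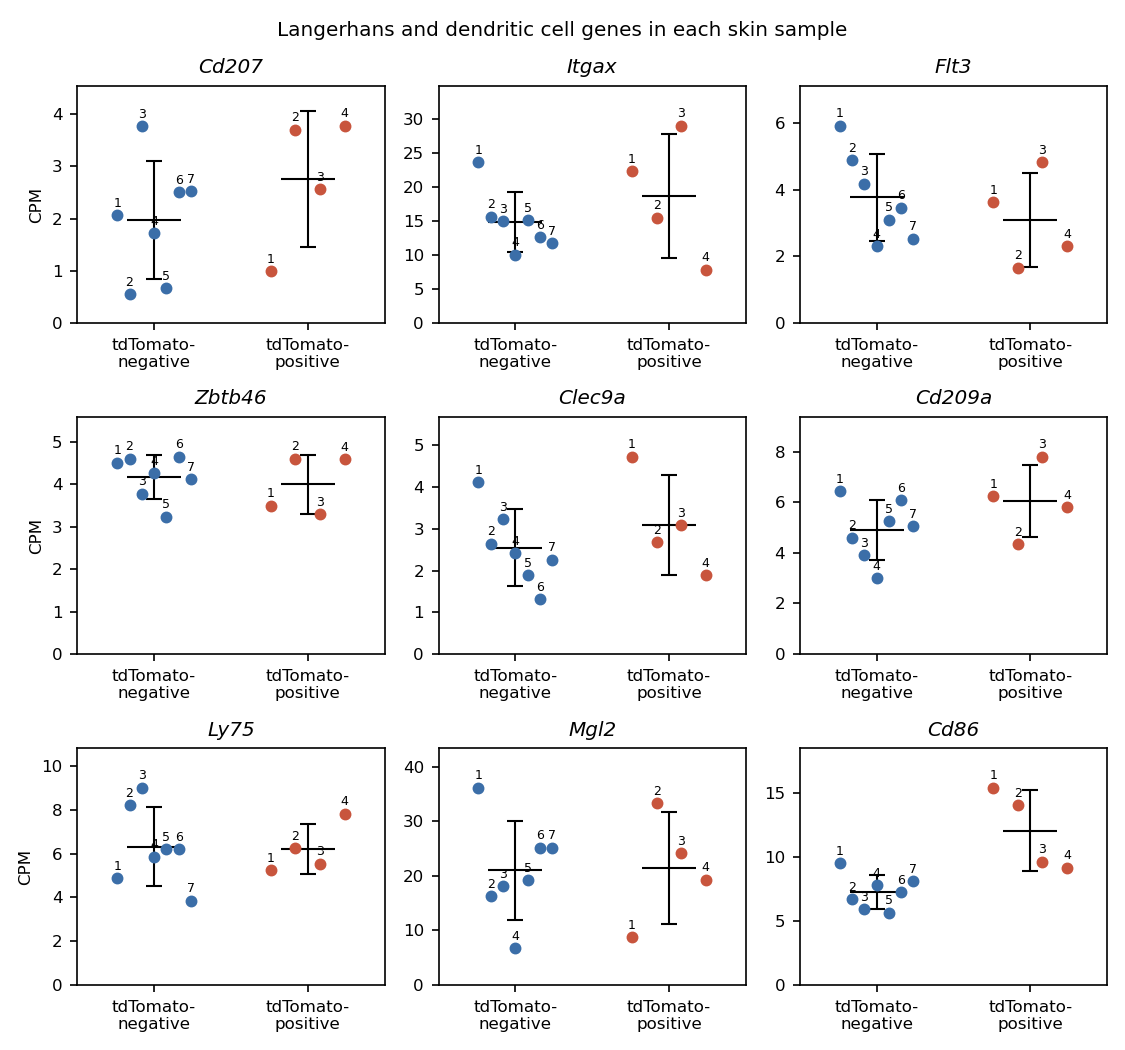
CPM of each of the 9 members in the 7 tdTomato-negative and 4 tdTomato-positive samples. Points are samples, numbered by replicate, and bars are group means ± SD. In every panel the groups overlap, and Cd86 has 3 of its 4 tdTomato-positive samples above all tdTomato-negative ones.

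**Figure D2:**
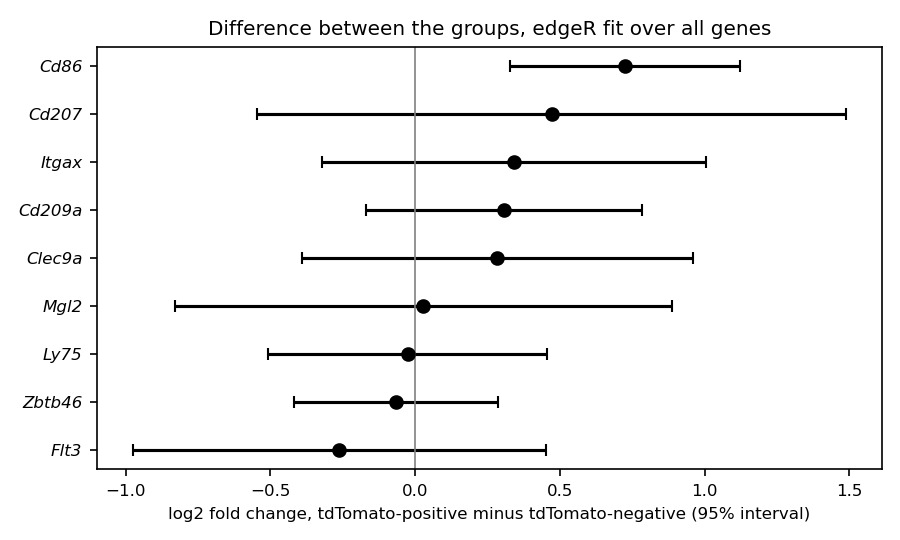
Fitted log2 fold change of each member, tdTomato-positive against tdTomato-negative, with its 95% interval from edgeR's quasi-likelihood fit. Only the interval of Cd86, 0.33 to 1.12, leaves out 0, and its adjusted p was 0.248.

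Cd207 encodes langerin, the lectin that forms the Birbeck granules of Langerhans cells and is also carried by dermal type 1 dendritic cells. Its CPM was 0.997, 3.705, 2.57 and 3.78 in tdTomato-positive replicates 1 to 4, and ran from 0.56 through a median of 2.06 to 3.77 in the tdTomato-negative samples. The lowest values were those of tdTomato-negative replicates 2 and 5 and tdTomato-positive replicate 1, and the groups overlapped over nearly their whole range. The log2 fold change was 0.47 ± 0.47 (SE), with a 95% interval from -0.55 to 1.49 and an adjusted p of 0.613. These values rest on 4 to 29 counts a sample, and the interval holds a doubling as well as no change. Ly75 encodes DEC-205, an endocytic receptor of Langerhans cells and type 1 dendritic cells that takes up antigen. Its CPM was 5.23, 6.26, 5.55 and 7.83 in the tdTomato-positive samples, against a lowest, median and highest of 3.86, 6.20 and 9.03 in the tdTomato-negative ones. This whole tdTomato-positive range lay inside the tdTomato-negative range. Its log2 fold change was -0.03 ± 0.22, with an interval from -0.51 to 0.46 and an adjusted p of 0.968.

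Clec9a encodes DNGR-1, the receptor by which type 1 dendritic cells sense actin filaments of dead cells. Its CPM was 4.74, 2.68, 3.08 and 1.89 in tdTomato-positive replicates 1 to 4, and 1.31, 2.42 and 4.12 at the lowest, median and highest of the tdTomato-negative samples. Replicate 1 of each group was that group's highest, and the groups overlapped. This was a log2 fold change of 0.28 ± 0.31, from -0.39 to 0.96, with an adjusted p of 0.652 on 11 to 38 counts a sample.

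Cd209a, a mouse relative of human DC-SIGN, and Mgl2, a galactose-binding lectin also known as CD301b, served here as markers of type 2 dendritic cells. Whether other cells of the skin also carried them cannot be told from bulk RNA. Cd209a was at 6.23, 4.34, 7.81 and 5.81 CPM in the tdTomato-positive samples, and at 2.99, 5.05 and 6.44 for the lowest, median and highest of the others. Only tdTomato-positive replicate 3 lay above all tdTomato-negative samples. The log2 fold change of Cd209a was 0.31 ± 0.22, from -0.17 to 0.78, with an adjusted p of 0.471. Mgl2 was at 8.72, 33.3, 24.1 and 19.3 CPM in the tdTomato-positive samples, and at 6.79, 19.3 and 36.2 for the lowest, median and highest of the others. The 2 groups covered nearly the same range, with tdTomato-negative replicate 4 and tdTomato-positive replicate 1 lowest. For Mgl2 the log2 fold change was 0.03 ± 0.39, from -0.83 to 0.89, with an adjusted p of 0.981. Of the 50-base windows of the Mgl2 transcripts, 14.5% also occur in another gene, nearly all in its neighbour in sequence Clec10a, so part of its estimated count depends on how reads were shared out. Cd209a shares no such window.

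Itgax encodes the integrin CD11c, carried by dendritic cells and many macrophages. Its CPM was 22.3, 15.5, 29.0 and 7.83 in the tdTomato-positive samples, which held both the highest and the lowest value of all 11, and 10.01, 14.96 and 23.6 at the lowest, median and highest of the tdTomato-negative ones. The spread of the tdTomato-positive samples (SD 9.08) around their mean of 18.6 was wider than the difference from the tdTomato-negative mean of 14.8 ± 4.37 (SD). In the fit the log2 fold change was 0.34 ± 0.30, from -0.32 to 1.003, with an adjusted p of 0.570. Of its transcript windows, 8.88% are shared with the related integrin gene Itgad.

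Flt3 encodes the receptor tyrosine kinase for FLT3 ligand, on which the formation of conventional dendritic cells depends. Its CPM was 3.61, 1.66, 4.83 and 2.30 in the tdTomato-positive samples, and 2.30, 3.46 and 5.92 at the lowest, median and highest of the tdTomato-negative ones. The groups overlapped, with tdTomato-positive replicate 2 lowest of all. Its log2 fold change was -0.26 ± 0.33, from -0.98 to 0.45, with an adjusted p of 0.700. Zbtb46 encodes a zinc finger transcription factor specific, among immune cells, to the conventional dendritic lineage and also present in endothelium. It had the lowest coefficient of variation among the members, 13.6% over all 11 samples, on 24 to 39 counts a sample. At such counts, counting noise alone can give a spread of this size. The tdTomato-positive samples were at 3.49, 4.60, 3.29 and 4.59 CPM, and the lowest, median and highest tdTomato-negative samples were at 3.23, 4.26 and 4.65. All tdTomato-positive values lay inside the tdTomato-negative range. The log2 fold change was -0.07 ± 0.16, and its interval from -0.42 to 0.29 was the narrowest among the 9.

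Cd86 encodes the co-stimulatory ligand of CD28 and CTLA-4, which dendritic cells raise on maturing and which macrophages and B cells also carry. Its CPM was 15.5, 14.1, 9.66 and 9.18 in tdTomato-positive replicates 1 to 4, against a lowest, median and highest of 5.66, 7.27 and 9.53 in the tdTomato-negative group. Replicates 1 to 3 of the tdTomato-positive group lay above every tdTomato-negative sample, and replicate 4 lay below tdTomato-negative replicate 1 alone. Of the 28 pairs of a tdTomato-positive and a tdTomato-negative sample, the tdTomato-positive one was higher in 27. The means were 12.1 ± 3.14 (SD, n = 4) and 7.29 ± 1.34 (SD, n = 7), and the fitted difference was 1.65-fold, with a 95% interval from 1.26 to 2.18. The log2 fold change was 0.73 ± 0.18, with an unadjusted p of 0.00183 and an adjusted p of 0.248 in edgeR's quasi-likelihood test with Benjamini-Hochberg adjustment over 14588 genes. A two-sided exact permutation test of the mean log2 CPM of this gene gave a p of 0.0121, with 9 genes tested. In the same exact permutation test the other 8 members gave values from 0.2 (Cd209a) to 1.0 (Ly75). The call for Cd86 changed with the tool: its adjusted p was 0.0498 in DESeq2, which called 0.658% of the 12607 genes with an adjusted p, and 0.0211 in limma-voom with sample quality weights, which called 14.3% of 14588. With the macrophage marker score as a covariate the log2 fold change was 0.41.

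Macrophage markers were highest in the same samples as Cd86. Of the 16 genes on the macrophage and monocyte list, 15 were tested, all 15 had a fold change above 0, none was called in edgeR, and the median was 0.57, or 0.30 without tdTomato-positive replicate 1. Their summed level ran from 968.2 to 2606.5 TPM, a level scaled for transcript length and for the sample's total, in the tdTomato-positive samples and from 825.0 to 1416 in the tdTomato-negative ones, and no macrophage marker was at 0 in all samples. The mean marker score, in standard deviations over the samples, was 1.93 and 1.18 in tdTomato-positive replicates 1 and 2, which also had the highest Cd86, and -0.66 and -0.09 in replicates 3 and 4. In the tdTomato-negative group it ran from -1.13 to 0.30. Across the 11 samples, log2 CPM of Cd86 and the score had a Pearson r of 0.847 (permutation p = 0.00168, adjusted over 54 relations 0.0907) and a Spearman rho of 0.591 (permutation p = 0.0610, adjusted 0.678). Without tdTomato-positive replicates 1 and 2, the samples farthest from the median of Cd86, r was 0.430, so the relation rests on those samples. With each sample left out in turn r was 0.743 to 0.912, and without tdTomato-positive replicate 3 alone its adjusted p was 0.0394. The part of macrophage markers in the Cd86 difference was not tested beyond the fit with their score as a covariate. In that fit, edgeR's quasi-likelihood test gave Cd86 an unadjusted p of 0.0198 and an adjusted p of 0.966. None of the 6 listed B cell genes passed the filter on low counts. Their summed count was 3 to 36 a sample, with up to 28 for Blk, which was named after its values were seen.

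**Figure D3:**
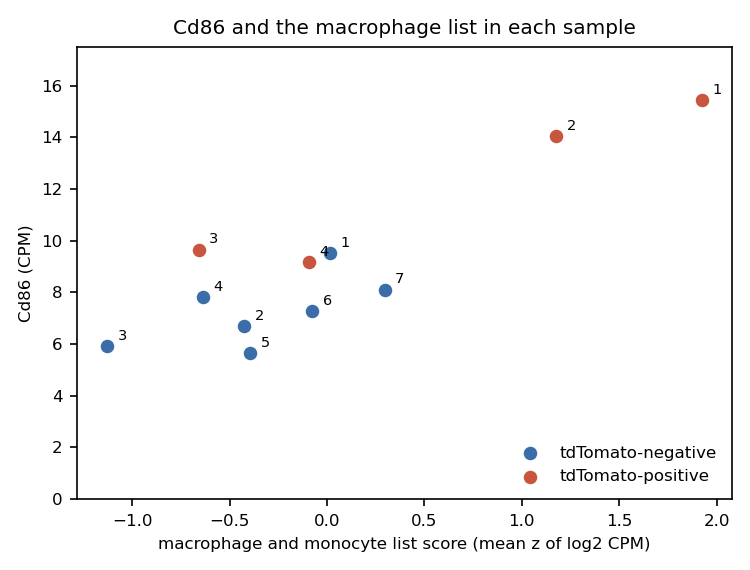
Cd86 CPM against the macrophage and monocyte marker score of each sample, in standard deviations over the samples. Points, numbered by replicate, are the 7 tdTomato-negative and 4 tdTomato-positive samples. The 2 samples with the highest scores, tdTomato-positive replicates 1 and 2, also have the highest Cd86, at 15.5 and 14.1 CPM.

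Per transcript length, Mgl2 stood highest. Its mean level over the 11 samples was 24.7 TPM (SD 10.9), and it was above Itgax, the next member, in all 11. Itgax (6.61, SD 2.73), Cd209a (6.54, SD 1.79) and Cd86 (6.04, SD 2.09) followed within their spread: Itgax exceeded Cd209a in 7 of 11 samples and Cd209a exceeded Cd86 in 8. Cd86 was above Zbtb46 (3.09 TPM, SD 0.50) in all 11 samples, although their ranges overlapped, with 3.67 to 10.09 TPM for Cd86 and 2.32 to 3.90 for Zbtb46. Cd207 (2.68, SD 1.40), Ly75 (1.95, SD 0.43), Flt3 (1.59, SD 0.61) and Clec9a (1.51, SD 0.57) came last, and Flt3 exceeded Clec9a in 6 of 11 samples. Every pair of neighbours in this order overlapped in range. The order was the same when the counts were divided by the deposited effective lengths.

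Correlations between members across samples lay on both sides of 0. Counts were as few as 4 a sample for Cd207, 11 for Clec9a and 13 for Flt3. Noise at such counts pulls r towards 0, and how far it did so here was not tested. Over the 36 pairs of members, the Pearson r of log2 CPM was above 0 in 22, with a median of 0.06 and a range from -0.50 (Itgax and Zbtb46) to 0.68. The highest was that of Itgax with Clec9a, with r = 0.677 (permutation p = 0.0223, adjusted 0.268) and rho = 0.673 (permutation p = 0.0285, adjusted 0.512). Itgax with Flt3 gave r = 0.664 (permutation p = 0.0249, adjusted 0.268) and rho = 0.700 (permutation p = 0.0195, adjusted 0.512). Without tdTomato-positive replicates 3 and 4, the samples farthest from the median of Itgax, these r were 0.731 and 0.577. Flt3 with Clec9a had a lower r of 0.427 (permutation p = 0.190, adjusted 0.775). None of the 54 relations computed, each over 11 samples, passed an adjusted p of 0.05. The promoter windows of the 3 genes, printed above, held different motif letters or none.

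**Figure D4:**
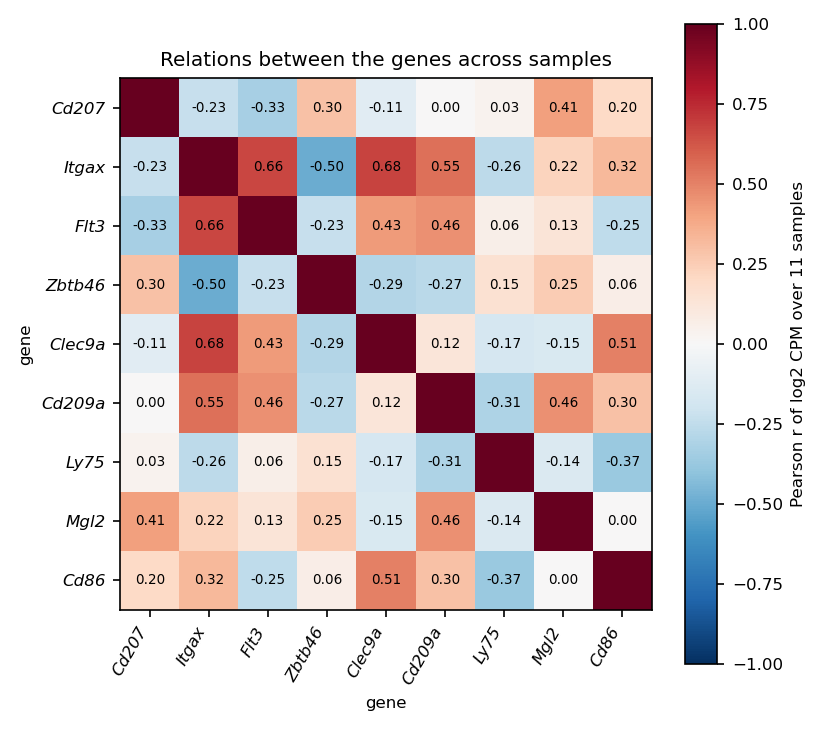
Pearson r of log2 CPM over the 11 samples for the 36 pairs of the 9 members. Itgax with Clec9a and Itgax with Flt3 have the highest values, 0.68 and 0.66, and Itgax with Zbtb46 the lowest, -0.50.

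Among 11737 genes with a mean of at least 5 CPM, the 3 whose log2 CPM followed each member most closely over the 11 samples were, for Cd207, Skint9, Zfpl1 and Nprl3 (r = 0.855, 0.846 and 0.844). Itgax was followed by Acap1, Itgb7 and Acp5 (r = 0.903, 0.899 and 0.882), of which Itgb7 encodes a leukocyte integrin subunit. For Cd86 the closest were Itm2b, Man1a and Celf2 (r = 0.976, 0.955 and 0.954). Ly75 followed Rps3a1, Senp2 and Paf1 (r = 0.921, 0.919 and 0.918), Mgl2 followed Ift140, Mul1 and Dok2 (0.905, 0.859 and 0.836), and Clec9a followed Xxylt1, Ece2 and Vps37b (0.900, 0.868 and 0.865). For Cd209a the first 2 were Pcdhgb4 and Scfd2 (0.899 and 0.855). They were for Flt3 Pigb, Leng1 and Parp4 (0.882, 0.818 and 0.810) and for Zbtb46 Rbm12b2, Cep44 and Homez (0.850, 0.836 and 0.765). These are the highest of many correlations over few samples and are given as a description.

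The other genes of Langerhans cells did not move one way. On the list of Langerhans cell markers and upkeep genes, all 14 were tested, 10 had a fold change above 0 and none was called, with a median of 0.27. With the macrophage score as a covariate this median was 0.06, and Csf1r is on both this list and the macrophage list. Epcam, an adhesion molecule of Langerhans cells and of keratinocytes, was at 113 ± 18.5 CPM (SD, n = 4) in the tdTomato-positive group and at 146 ± 19.9 (SD, n = 7) in the tdTomato-negative group, with a log2 fold change of -0.37 and an adjusted p of 0.254. Cdh1, which encodes the E-cadherin that holds Langerhans cells between keratinocytes, was at 492 ± 24.5 and 522 ± 39.3 CPM, with a log2 fold change of -0.09. Keratinocytes express both genes as well.

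Of the dendritic cell subset lists, no gene was called in edgeR. On the type 1 list, 10 of 11 genes were tested, 7 were above 0 and the median was 0.19, or 0.073 and 0.30 without tdTomato-positive replicates 1 and 4. This median was 0.11 with the macrophage score as a covariate and 0.02 with the replicate number as a block. Xcr1, the chemokine receptor of type 1 cells, was at 1.16 CPM in the tdTomato-positive and 1.54 in the tdTomato-negative mean, and Irf8, a transcription factor these cells need, at 19.6 ± 4.57 and 16.1 ± 2.71 (log2 fold change 0.28, adjusted p = 0.379). All 11 tested genes of the 12 on the type 2 list were above 0. Their median was 0.24, or 0.05 with the macrophage score as a covariate. Clec10a, the lectin closest to Mgl2, was at 46.9 ± 21.99 and 39.6 ± 12.1 CPM (log2 fold change 0.24, adjusted p = 0.674). Of the 8 plasmacytoid genes 6 were tested and all 6 were above 0, with a median of 0.31, or 0.12 without tdTomato-positive replicate 1. With the macrophage score as a covariate the plasmacytoid median was 0.02. Siglech was at 1.68 and 1.59 CPM, Ccr9 at 7.67 and 5.62, and Tcf4, a factor expressed in many other cells too, at 213 ± 26.3 and 166 ± 28.5.

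On the list of dendritic cell activation and migration genes, which includes Cd86, 13 of 16 were tested, 10 were above 0 and the median was 0.20. It was -0.08 without tdTomato-positive replicate 1, 0.37 without replicate 4 of that group, 0.35 and 0.13 without tdTomato-negative replicates 1 and 6, and -0.15 with the macrophage score as a covariate. Cd80, the other CD28 ligand, was at 3.32 ± 2.33 CPM in the tdTomato-positive group and 2.81 ± 0.85 in the tdTomato-negative group, with a log2 fold change of 0.24. Cd40, through which T cells activate dendritic cells, was at 3.05 ± 1.35 and 2.67 ± 0.95, with a log2 fold change of 0.20. Cd86 thus had the lowest unadjusted p of the 3 co-stimulatory genes, although the difference between them was not tested. Of the 13 growth factor and progenitor genes 12 were tested and 8 were above 0, with a median of 0.21, or 0.051 and 0.13 without tdTomato-positive replicates 1 and 3. Flt3l, which encodes the ligand of FLT3, was at 2.45 ± 0.92 and 2.11 ± 0.70 CPM, with a log2 fold change of 0.23, while its receptor Flt3 had a log2 fold change of -0.26.

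The lectin relatives of the members had a larger median difference than the members. Of the 13 listed, 10 were tested, 9 were above 0, none was called in edgeR and the median was 0.54, or 0.34 without tdTomato-positive replicate 1. Cd209b, a paralog of Cd209a carried by macrophages of the spleen's marginal zone, was at 6.12 ± 2.18 CPM in the tdTomato-positive group and 2.97 ± 0.88 in the tdTomato-negative group. Its tdTomato-positive samples ran from 4.73 to 9.35 CPM and its tdTomato-negative ones from 1.93 to 4.17, without overlap. It was the 1 gene without overlap of the 10 tested on this list, against 1.67% of all tested genes. Its log2 fold change was 1.04 ± 0.26, with an adjusted p of 0.248. Cd209c had 2.40 ± 1.07 CPM in the tdTomato-positive group and 2.93 ± 1.34 in the tdTomato-negative group. The log2 fold change of Cd209a, 0.31, lay between those of Cd209b and Cd209c (-0.27). The other Cd209 relatives on the list ran from 0.31 to 1.14, none of them below Cd209a. With the macrophage score as a covariate the median of the lectin list was 0.05. A tested gene of the lectin list is also on the macrophage list, so the score is not independent of this list.

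**Figure D5:**
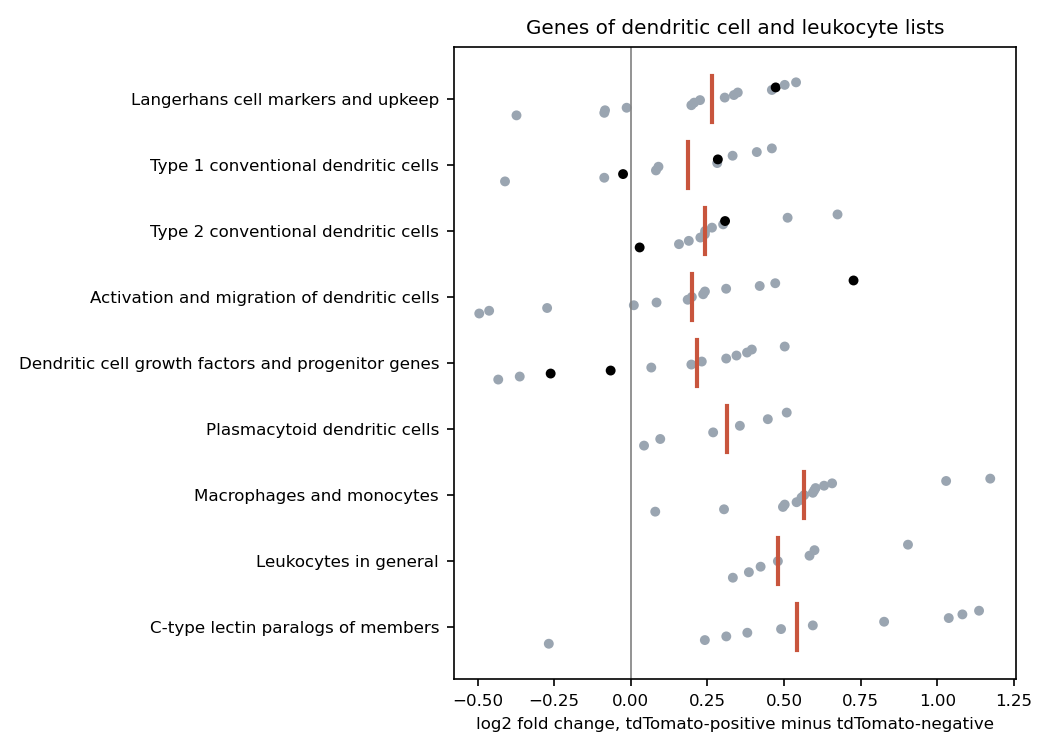
Log2 fold change, tdTomato-positive against tdTomato-negative, of the tested genes of 9 lists, with a point for each gene, black for the members described here, and a bar for the list's median. The medians are 0.19 to 0.31 for the dendritic and Langerhans lists and 0.57 for macrophages and monocytes, and no gene was called in edgeR's quasi-likelihood test.

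Other tissue markers also differed between the samples. Ptprc, which encodes the leukocyte antigen CD45, was at 105 ± 45.5 CPM in the tdTomato-positive group and 70.1 ± 14.6 in the tdTomato-negative group, with an adjusted p of 0.264. The median log2 fold change was 0.48 for 7 general leukocyte genes, 0.30 for 11 tested T cell genes, 0.67 for 7 neutrophil genes, 0.10 for 7 mast cell genes, 0.38 for 8 fibroblast genes and 0.16 for 12 epidermal keratinocyte genes, with no gene called in edgeR. Without tdTomato-positive replicate 1 the neutrophil median was 0.21 and that of general leukocyte genes 0.20, without tdTomato-positive replicate 4 the T cell median was 0.52, and the mast cell median ran from -0.02 (without tdTomato-negative replicate 3) to 0.60 (without tdTomato-negative replicate 1). The epidermal median was 0.087 without tdTomato-positive replicate 3 and 0.25 without tdTomato-negative replicate 7. All 26 hair follicle genes were below 0, with a median of -2.31 and summed levels from 359.8 to 9802 TPM in the tdTomato-positive and 245.1 to 29552 in the tdTomato-negative samples. Without tdTomato-positive replicate 4 the hair median was -4.12. Hair scores fell into separate clusters, 5 samples from -1.48 to -0.51 and 6 from 0.47 to 1.16, with 3 of the 4 tdTomato-positive samples in the lower one, so no pooled correlation with them is given. The scores of tdTomato-positive replicates 1 to 3, which had the highest Cd86, were -0.55, -1.25 and -1.08. That of replicate 4 was 0.47, with Cd86 at 9.18 CPM. In the lower cluster were also tdTomato-negative replicates 1 (-0.51) and 7 (-1.48). Their Cd86, at 9.53 and 8.11 CPM, was the highest of the tdTomato-negative group. Ly75 was highest in the sample with the highest hair score (tdTomato-negative replicate 3, 9.03 CPM) and lowest in the one with the lowest (tdTomato-negative replicate 7, 3.86 CPM). Adding this score to the fit gave a log2 fold change of 0.33 for Ly75, -0.31 for Mgl2 and 0.54 for Cd86, with an adjusted p of 0.657 for Cd86 in edgeR. The part of hair follicle and other marker differences in the members' values was not tested beyond these fits. Total counts were 7190752 to 9749842 a sample.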

How the data were processed

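Ribosome-depleted total RNA of 11 back skin samples was sequenced, per the labels' protocols (KAPA RNA HyperPrep with RiboErase, NextSeq2000). Per the submitters' processing notes, the authors used bcl2fastq, Trim Galore and RSEM with GRCm38. The versions, the aligner and the use of strand were not given in the sources used here. Per the file headers, the deposited tables hold RSEM's expected counts, TPM and effective lengths per gene. Levels between genes and summed levels of marker lists are in the authors' TPM. Levels of single genes in each sample are in CPM computed from the expected counts with TMM scaling, as in the main fit. Expected counts were rounded for tests and for CPM. The main test was edgeR 4.0.16 (R 4.3.3), quasi-likelihood in legacy mode, with TMM scaling, the filter filterByExpr (minimum count 10, minimum total 15) and Benjamini-Hochberg adjustment over 14588 genes, at 0.05. The SE of a log2 fold change was taken from its F value. The script was tested on simulated data with 200 changed genes. Alternatives used DESeq2 1.42.0 and limma 3.58.1, other scalings and filters, covariates, the replicate numbers as a block, and each sample left out in turn. Depth was 7190752 to 9749842 counts a sample, and intervals cover the spread between samples. Samples were grouped by the label on the transplanted cells, and no pair of samples in a group was a copy of another, with at least 3.43 chi-square per degree of freedom. Relations used permutation tests (100000 permutations). The scores are means of standardised log2 CPM over a list's tested genes. Named genes were the 9 members, the first 3 tested genes of the described lists and the 3 genes most like each member, of which 1 for Cd209a is not reported here. Blk was named outside this rule. The members and lists were chosen with earlier results of these data known. RefSeq promoters and GENCODE transcripts of GRCm38 served for sequences. A planned comparison of the members' proteins was not run.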

Additional observations from a re-analysis of the deposited data

Results flagged for a closer look

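Of 18 sets of values checked, 9 members in 2 groups, 1 held a sample far from the others. Itgax was at 23.6 CPM in tdTomato-negative replicate 1, while the other 6 samples of that group ran from 10.0 to 15.6 CPM. Chance sets apart a sample in about 1 of 20 groups. Without that sample, the log2 fold change of Itgax was 0.51, with an adjusted p of 0.312, against 0.34 with all samples. Without tdTomato-positive replicate 3, which had the highest Itgax, it was 0.051, without tdTomato-positive replicate 4, which had the lowest, 0.59. It was 0.073 once the fit included the hair score.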

How the results depend on the processing

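The count of genes past an adjusted p of 0.05 was 0 in edgeR's quasi-likelihood test (2448 at an unadjusted p under 0.05), 83 in DESeq2, 2093 in limma-voom with sample quality weights, and 73 in DESeq2 on all genes with a count, a setting chosen after seeing the data. Leaving out 1 sample gave 0 to 3, with 1 gene called without tdTomato-negative replicate 4 and 3 without tdTomato-negative replicate 7. Members called were 1 (Cd86) in DESeq2, where 6 of the 9 members had an adjusted p, and 1 (Cd86) with quality weights. None was called under the other settings or with any sample left out. The Cd86 log2 fold change stayed above 0, from 0.41 (macrophage score as covariate) to 0.86 (quality weights), and from 0.59 to 0.83 with 1 sample left out, with adjusted p from 0.0211 to 0.966. Small log2 fold changes turned sign. Ly75 (-0.03) was 0.014 with upper quartile scaling, 0.0049 with library totals, 0.0013 in limma-voom, 0.017 on log2(TPM + 1), 0.33 with the hair score, 0.21 with the macrophage score and 0.30 with the epidermal score. Mgl2 (0.03) was -0.31, -0.013 and -0.14 with the hair, macrophage and epidermal score, and Zbtb46 (-0.07) was 0.013 with quality weights. With 1 sample left out, Ly75 ran from -0.15 to 0.080, Mgl2 from -0.26 to 0.29 and Zbtb46 from -0.14 to 0.026. The others kept their sign, from 0.29 to 0.75 for Cd207, 0.051 to 0.59 for Itgax, -0.56 to -0.05 for Flt3, 0.011 to 0.45 for Clec9a and 0.16 to 0.44 for Cd209a. Among lists, the medians of neutrophil (-0.11), activation (-0.15) and growth factor genes (-0.02) fell below 0 with the macrophage score, and that of mast cell genes with the hair (-0.29), macrophage (-0.17) and epidermal score (-0.20). The growth factor list shares Csf1r with the macrophage list, and the cause of these turns in sign was not tested. With the replicate number as a block, 0 genes were called (2366 at an unadjusted p under 0.05), Cd86 was 0.67 and Clec9a (0.28) was -0.035. Same-numbered samples correlated at -0.14 to 0.34 in their deviations from the group means, and no sample correlated best with its own number. A stricter filter (minimum count 30) left 7 of the 9 members. Depth limits Cd207, Flt3 and Clec9a most, with as few as 4, 13 and 11 counts in a sample.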
